A study of Mus musculus with 6 samples.

Results

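The voltage-gated calcium and sodium channels form the family described here, in islets isolated from the pancreas of male mice. Its members were all array probes that are not controls and whose gene name is Cacna, Cacnb or Cacng with its suffix, or Scn followed by a number and a or b. The rule found 55 probes of 39 gene names, of 39429 probes and 31829 gene names on the array. It takes in the pore subunits, the auxiliary subunits and the sodium channel beta subunits, and leaves out the name Scn2a1, which ends in a digit.

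Mutants were Nkx6.1fl/-;Pdx1-CreERTM and controls were their littermates, Nkx6.1fl/+;Pdx1-CreERTM. Nkx6.1 is a transcription factor of beta cells, and Pdx1-CreERTM is a tamoxifen-activated recombinase under a Pdx1 promoter, which is active in beta cells and some other islet cells, so that any deletion covers only part of the islet. All mice, controls included, carried a floxed allele and the recombinase and had 4 injections of tamoxifen in corn oil, 2 mg per 25 g body weight, between 4 and 6 weeks of age, and islets were taken at 6 weeks. Mutants carried a null allele before the injections too, so its effect and that of the induced deletion cannot be told apart. The floxed line had a mixed FVB/N x C57Bl/6J background and the Pdx1-CreERTM line a mixed Cd1 X C57Bl/6J background. Each of the 3 mutant and 3 control samples was RNA pooled from 2 pancreata, hybridised to a single-colour Agilent mouse array. The comparison asked which transcripts differ between islets with Nkx6.1 deleted and littermate islets that keep a wild-type allele.

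A beta cell fires electrical spikes when closed potassium channels depolarise its membrane, and calcium entering through voltage-gated channels then triggers the release of insulin granules. The pore of each channel is 1 large protein, an alpha1 subunit for calcium and an alpha subunit for sodium. Calcium pores are brought to the membrane and tuned by an intracellular beta subunit and an extracellular alpha2delta subunit, and sodium pores are tuned by membrane-spanning beta subunits. L-type pores, encoded by Cacna1c and Cacna1d, carry much of the calcium current coupled to insulin release in mouse beta cells, and voltage-gated sodium pores speed the rise of the spike in mouse alpha, beta and delta cells.

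Probe sequences are given for Scn3a, Cacna2d2, Cacna1d and Cacna1h, because the results on these genes turn on whether separate stretches of a transcript gave the same difference. The sequence of the 1 Cacna1c probe is given too. The sequences are 30 of the 60 bases of each probe as the scanner files list them, 5′ to 3′, with mm9 positions. Capitals mark AATAAA, the canonical polyadenylation signal, or a stop triplet that closes an open frame across the probe of Cacna1d. Other probes have no capitals. The stop triplet was marked for Cacna1d alone. The Cacna1h probe at position 568 also closes an open frame with a stop triplet, outside the bases printed.
Scn3a, transcript position 6735 (chr2:65297970-65297999, minus strand): tccactttctggatggtgttagcttacaag
Scn3a, transcript position 8355 (chr2:65296323-65296352, minus strand): gaagtttgtcaaAATAAAgactagttaaaa
Scn3a, transcript position 9000 (chr2:65295705-65295734, minus strand): gagaaagaacacctctgaaagatacctttc
Cacna2d2, transcript position 5103 (chr9:107431245-107431274, plus strand): tgtcagctgtgtcctgtgggggcgtgtgtg
Cacna2d2, transcript position 5473 (chr9:107431615-107431644, plus strand): tattttcaaatggtttattacagaagatca
Cacna1c, transcript position 6405 (chr6:118544109-118544138, minus strand): tgacgcctgcgacatgacaatagaggagat
Cacna1d, transcript position 6870 (chr14:30855259-30855288, minus strand): gatgagatgatttgcattaccaccttgTAG
Cacna1d, transcript position 8356 (chr14:30853803-30853832, minus strand): acacctggggacagttagctttggaatcgt
Cacna1h, transcript position 568 (chr17:25569848-25569877, minus strand): cttcttctgcctcgggcaaaccacgcggcc
Cacna1h, transcript position 8165 (chr17:25511241-25511270, minus strand): aaagcaaagctgAATAAAcactaacttatt

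Transcript positions are those the scanner files give for the start of each probe, and the part of the gene model it falls in was not used here. AATAAA occurred on the probe strand in 6 of the 55 channel probes (10.9%), against 4965 of all 39429 probes (12.6%), and on either strand in 7 channel probes (12.7%), against 6377 of all probes (16.2%). The overlap of this motif with other motifs was not examined, and its presence in a probe is a description of the letters alone.

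Values are normalized log2 signals, the log2 of the background-corrected spot intensity minus the 75th percentile of its array, so that 0 is the brightness of that percentile. The level of a probe is not set against that of another probe, because probes differ in binding. A probe was tested where all 3 mutant arrays or all 3 control arrays, or both, had it well above background in the scanner software's call, and a gene was represented by its brightest tested probe. Differences are mutant minus control, from limma over 22775 gene names with Benjamini-Hochberg adjustment, and a gene was called at an adjusted p under 0.05. The labels call the 3 samples of a group biological replicates, and their number limits the precision.

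On the arrays, the share of probes well above background was 63.9% to 74.4% in mutants and 73.4% to 76.3% in controls, and the lowest corrected signal was 7.98 on mutant A and 6.85 on mutant B, above the 2.31 to 3.31 of the other 4 arrays. Slide 1 held mutants B and C with control A, and slide 2 held mutant A with controls B and C. The recorded scan date entry was the same for the arrays of a slide and differed between the slides. Nkx6-1, the targeted gene, had signals of 4.38, 4.13 and 4.52 in mutants A to C and 4.87, 4.92 and 4.71 in controls A to C. Its difference was -0.49 (SE 0.14), with no overlap of the groups and an adjusted p of 0.126 in limma, and its 1 probe may lie outside the deleted part, which the labels do not give. Of the 8 beta cell markers, 2 were called lower in mutants (25%, against 1.19% of all gene names) and none higher, and all 8 were above background on all arrays. In pooled islets, fewer cells of a type and less RNA per cell cannot be told apart.

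Scn3a, the sodium pore Nav1.3, was the only one of the 31 tested channel genes that changed at the threshold, and it was 2.52-fold higher in mutant islets. In all, 1 of 31 channel genes was called (3.23%), against 584 of 22775 gene names (2.56%), and the member called was higher, against 314 higher (1.38%) and 270 lower (1.19%) among all gene names. The share of called channel genes is near that background. The count over all gene names fell to 275, 20 and 71 without mutants A, B and C and to 13 and 17 without controls B and C, and to 0 without mutants A and B together. Differences were above 0 for 18 channel genes and below 0 for 13, with a median of 0.04, against a median of -0.03 over all gene names. At an unadjusted p under 0.05 there were 6 channel genes, against 20.2% of all gene names, and 6 had groups that did not overlap (19.4%), against 26.3% of all. Of these 6, the 4 with every mutant array above every control array were Scn3a, Scn8a, Cacna2d2 and Cacng7, against 11.7% of all gene names in that direction. The 2 with every mutant array below every control array were Cacna1c and Cacna1s, against 14.6% of all gene names in that direction.

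**Figure D1:**
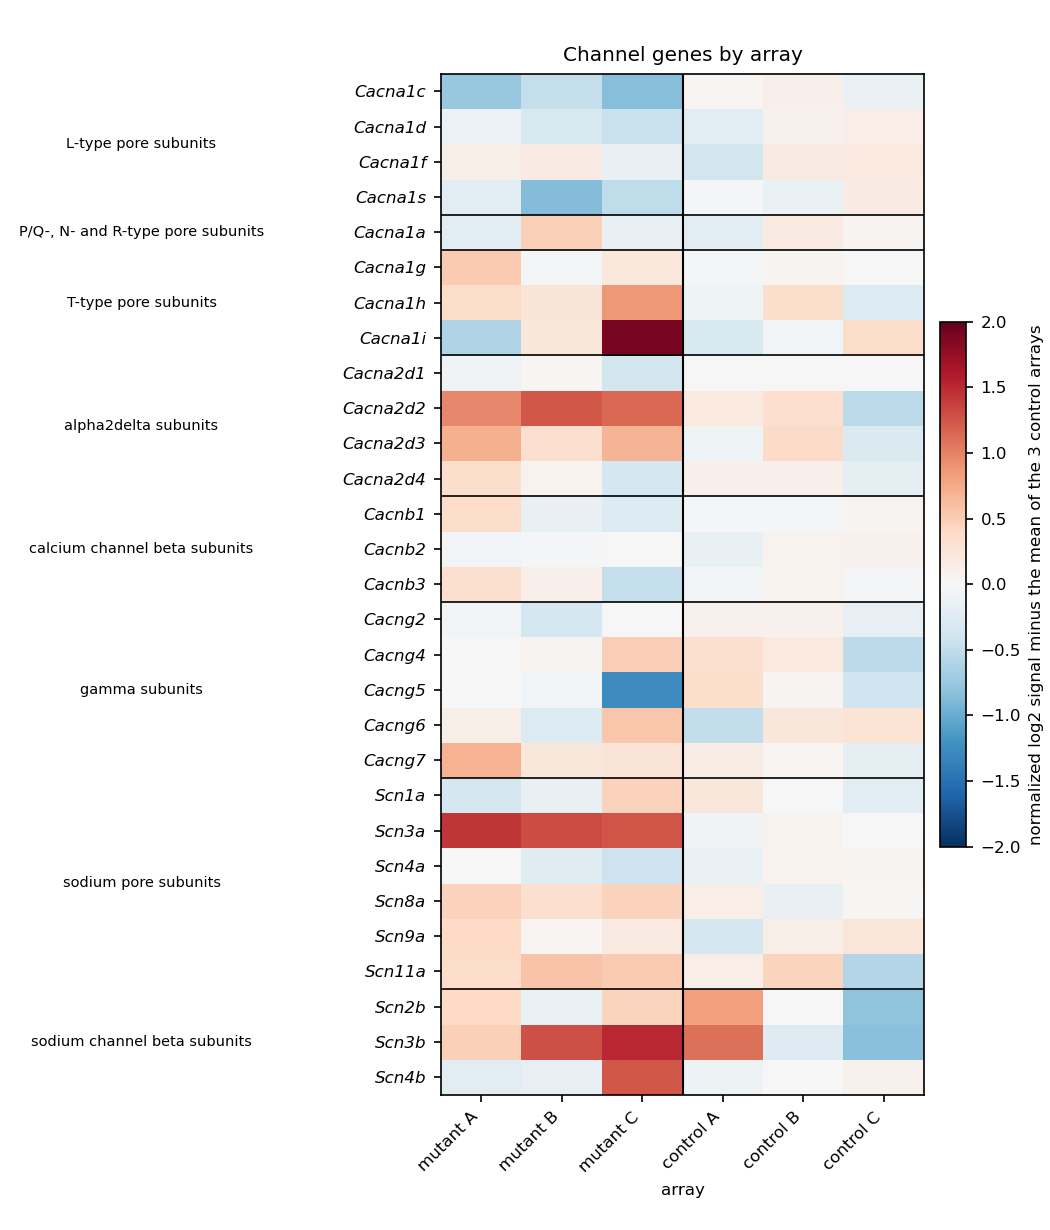
Normalized log2 signal of the tested channel genes reported by name (rows, grouped by role) on each array (columns, mutants left of controls), drawn as the deviation from the mean of the 3 control arrays on a scale that ends at -2 and 2. Scn3a and Cacna2d2 are red on all 3 mutant arrays, Cacna1c is blue on all 3, and Cacna1i and Scn4b have their strongest red on mutant C.

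The map of channel genes by array shows that the strongest colours lie in a few rows, and that some of them rest on a single array. The plot of differences keeps the same gene order and adds their errors.

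**Figure D2:**
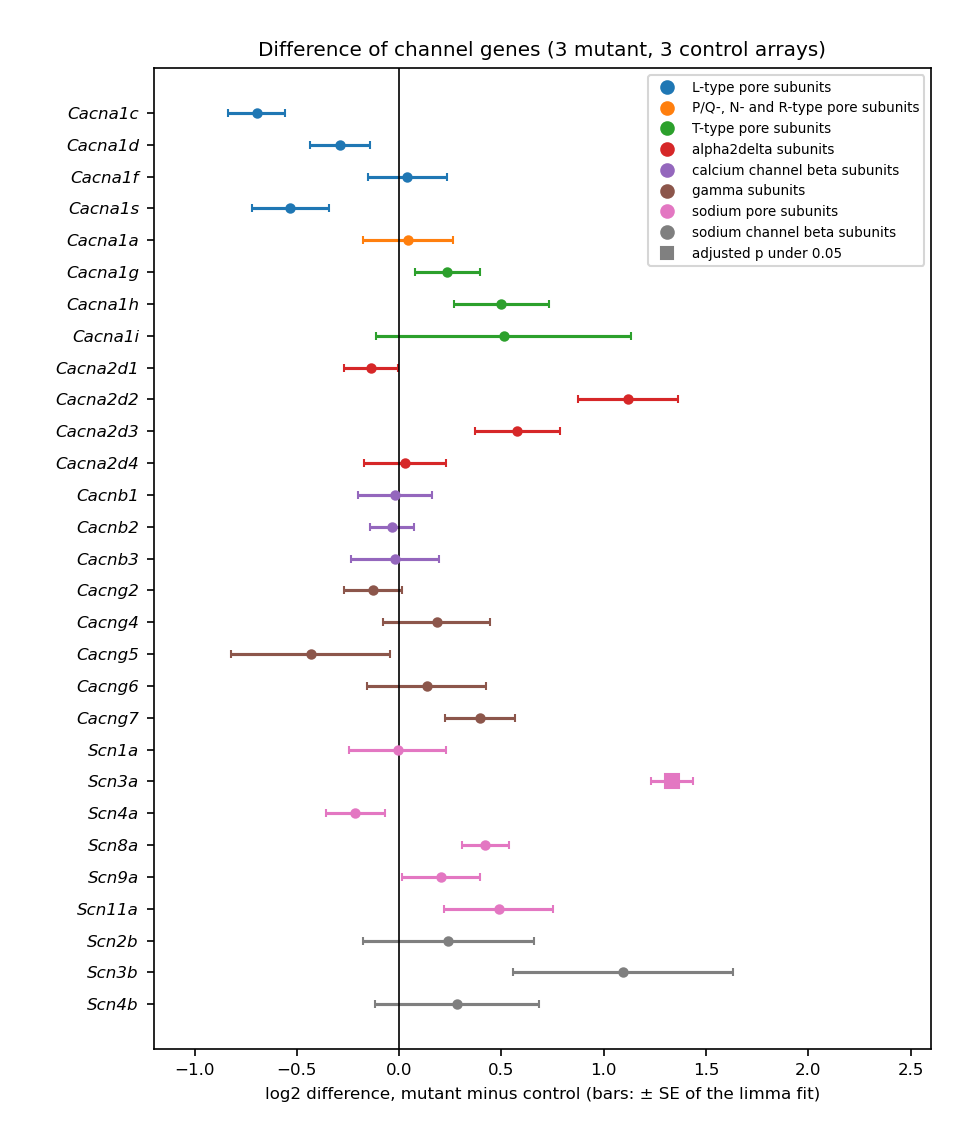
Log2 difference, mutant minus control, of the tested channel genes reported by name, with the SE of the limma fit (bars) over 3 mutant and 3 control arrays; colour gives the role and the square marks an adjusted p under 0.05. Scn3a alone carries a square, at 1.33, while Cacna2d2 and Scn3b lie near it with wider bars.

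The sodium pore subunits were the group that held the called gene. Scn3a had signals of 2.19, 2.06 and 2.02 in mutants A to C and 0.69, 0.84 and 0.75 in controls A to C. All mutant arrays lay above all control arrays, and the spread within each group was small beside the gap. The means were 2.09 ± 0.089 in mutants and 0.76 ± 0.072 in controls (SD, n = 3 each), a difference of 1.33 (SE 0.10, 95% interval 1.08 to 1.58, adjusted p = 0.0101 in limma). Adding the slide to the model gave 1.37 (adjusted p = 0.0151), and the separate slides gave 1.35 (slide 1) and 1.40 (slide 2). Leaving out single arrays ended the call in 3 of 6 cases, with values of 1.35 without mutant B (adjusted p = 0.0631), 1.37 without control B (adjusted p = 0.0716) and 1.33 without control C (adjusted p = 0.0672). Without both mutant arrays of raised lowest signal it was 1.26 (adjusted p = 0.0822).

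Scn3a was measured by 2 further probes, and the 3 sequences given above lie on separate stretches of the transcript. The probe at position 8355, which spans AATAAA, had 1.99, 2.06 and 1.91 in mutants A to C and 0.69, 0.41 and 0.31 in controls A to C. The dim probe at position 9000 had -3.54, -4.06 and -4.26 in mutants A to C and -5.31, -5.64 and -5.69 in controls A to C. On both, all mutant arrays lay above all control arrays. When each of the 28361 tested probes was fitted by itself, the differences were 1.33 (adjusted p = 0.00979), 1.51 (adjusted p = 0.0110) and 1.59 (adjusted p = 0.0291) in 5′ to 3′ order. These were the 3 called probes of the 43 tested channel probes, against 801 of all tested probes in either direction (2.82%) and 413 higher (1.46%), and they share 1 gene and so are no replicates.

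Markers of islet cell types also differed between arrays. Nav1.3 is known from mouse alpha and delta cells as well as beta cells. The 8 alpha cell markers, all above background on all arrays, had summed levels of 359 to 643 times the array's 75th percentile in mutants and 336 to 495 in controls. None was called, but 7 of 8 differences were above 0, with a median of 0.46, and 3 had all mutant arrays above all control arrays (against 11.7% of all gene names). The marker below 0, Slc7a2 at -0.73, had all mutant arrays below all control arrays (against 14.6% of all gene names). The 4 delta cell markers, likewise all detected and none called, had a median difference of 0.56, all 4 above 0, and summed to 329 to 475 in mutants and 214 to 368 in controls. Of the 8 beta cell markers, 5 had all mutant arrays below all control arrays (62.5%, against 14.6% of all gene names), and the median difference was -0.58. Their mean deviations from the control average were -0.55, -0.57 and -0.57 in mutants A to C and 0.12, -0.05 and -0.07 in controls A to C, while their summed level, mostly that of Ins1, Ins2 and Iapp, was 649 to 1079 in mutants and 713 to 1012 in controls. The alpha and delta sums are mostly those of the brightest markers, such as Gcg and Sst. The 75th percentile they are set against ran, in log2, from 10.60 on mutant C to 11.27 on control C. Whether the hormone spots neared saturation was not examined, so these sums are no measure of the number of cells. The part of these cells in the Scn3a difference was not tested.

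Scn8a, which encodes the sodium pore Nav1.6 of nerve axons, had 1.78, 1.65 and 1.76 in mutants A to C and 1.44, 1.16 and 1.33 in controls A to C. The groups did not overlap, but the difference of 0.42 (SE 0.11, adjusted p = 0.120 in limma) did not pass. A second Scn8a probe near the 5′ end, at position 263, gave a difference of 0.03 (SE 0.13), with mutant values of -3.14, -3.05 and -3.34 and control values of -3.04, -3.30 and -3.28. The groups overlapped on that probe, and the other Scn8a probe was above background on no array, so the separation rests on the 3′ probe.

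Scn9a, the pore Nav1.7 that is prominent in mouse beta cells, had -3.42, -3.79 and -3.64 in mutants A to C and -4.17, -3.71 and -3.59 in controls A to C. The groups overlapped, and the difference was 0.21 (SE 0.19, 95% interval -0.26 to 0.67, adjusted p = 0.578). Scn11a, a sodium pore known from pain-sensing neurons, had -3.30, -3.09 and -3.15 in mutants A to C and -3.53, -3.22 and -4.25 in controls A to C. Control C was the lowest array, mutant A lay below control B, and the difference was 0.49 (SE 0.27, adjusted p = 0.367). The pores Scn1a and Scn4a showed small differences with overlapping groups: -0.01 for Scn1a of central neurons (adjusted p = 0.990) and -0.21 for Scn4a of skeletal muscle (adjusted p = 0.447). The sign for Scn1a turned under several settings. Scn7a, an unusual sodium-sensing relative, was above background on no array, and Scn10a of sensory neurons on mutant A alone, so neither was tested.

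On the GRCm38 annotation of RefSeq, 5 sodium pore genes follow each other on chromosome 2 in the order Scn3a, Scn2a, Scn1a, Scn9a and Scn7a, with no other protein-coding gene between Scn3a and Scn2a. Scn2a, named Scn2a1 on the array, is outside the rule and was looked up for that place after the Scn3a values were known. Its brightest probe had -3.92, -3.91 and -3.28 in mutants A to C and -3.99, -3.93 and -4.16 in controls A to C, a difference of 0.33 (adjusted p = 0.413 in the fit of single probes). All mutant values lay above all control values there, by a narrow margin. The other Scn2a1 probes gave 1.34 (adjusted p = 0.0252) and 1.29 (adjusted p = 0.0464), the second of them above background on 5 of the 6 arrays. The Scn2a1 probes thus differed among themselves in the size of the difference, and the neighbours Scn1a and Scn9a had the small differences given above.

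Among the sodium channel beta subunits, which anchor and tune the pores, none of the 4 tested genes passed, 3 had differences above 0 and their median was 0.26. Scn3b had -1.10, -0.29 and -0.06 in mutants A to C and -0.48, -1.83 and -2.42 in controls A to C. Control A lay above mutant A, and the control arrays alone ran from -2.42 to -0.48. The difference of 1.09 (SE 0.54, adjusted p = 0.321 in limma) did not pass. With slide as a block it was 0.67, with 0.30 within slide 1 and 1.03 within slide 2. Scn2b had a difference of 0.24 (SE 0.42), where the control arrays alone ran from -2.87 to -1.24.

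Scn4b had -5.12, -5.06 and -3.65 in mutants A to C and -4.99, -4.88 and -4.81 in controls A to C. Mutant C lay above all controls and mutants A and B below them, and the difference was 0.28 (SE 0.40, adjusted p = 0.715). Taken by slide it was 0.64 on slide 1 and -0.27 on slide 2. Cacna1i, a T-type calcium pore, showed the same high array on its brightest probe, with -2.83, -1.999 and -0.34 in mutants A to C and -2.54, -2.29 and -1.87 in controls A to C. Its difference was 0.51 (SE 0.62, adjusted p = 0.673), and by slide it was 1.37 on slide 1 and -0.75 on slide 2. Acinar markers were also highest on mutant C: the 8 tested of 9, all above background on all arrays, summed to 632, 1983 and 2786 times the array's 75th percentile in mutants A to C and to 938, 1096 and 1376 in controls A to C. Amy2b was not tested. The part of acinar RNA in these values was not tested, and saturation of the acinar spots was not examined.

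The second Cacna1i probe, nearer the 3′ end, did not show the high mutant C. It had -2.07, -2.48 and -2.14 in mutants A to C and -2.48, -2.69 and -3.23 in controls A to C, where mutant B and control A were level to 2 decimals. Its difference was 0.57 (SE 0.22, adjusted p = 0.229 in the fit of single probes).

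**Figure D3:**
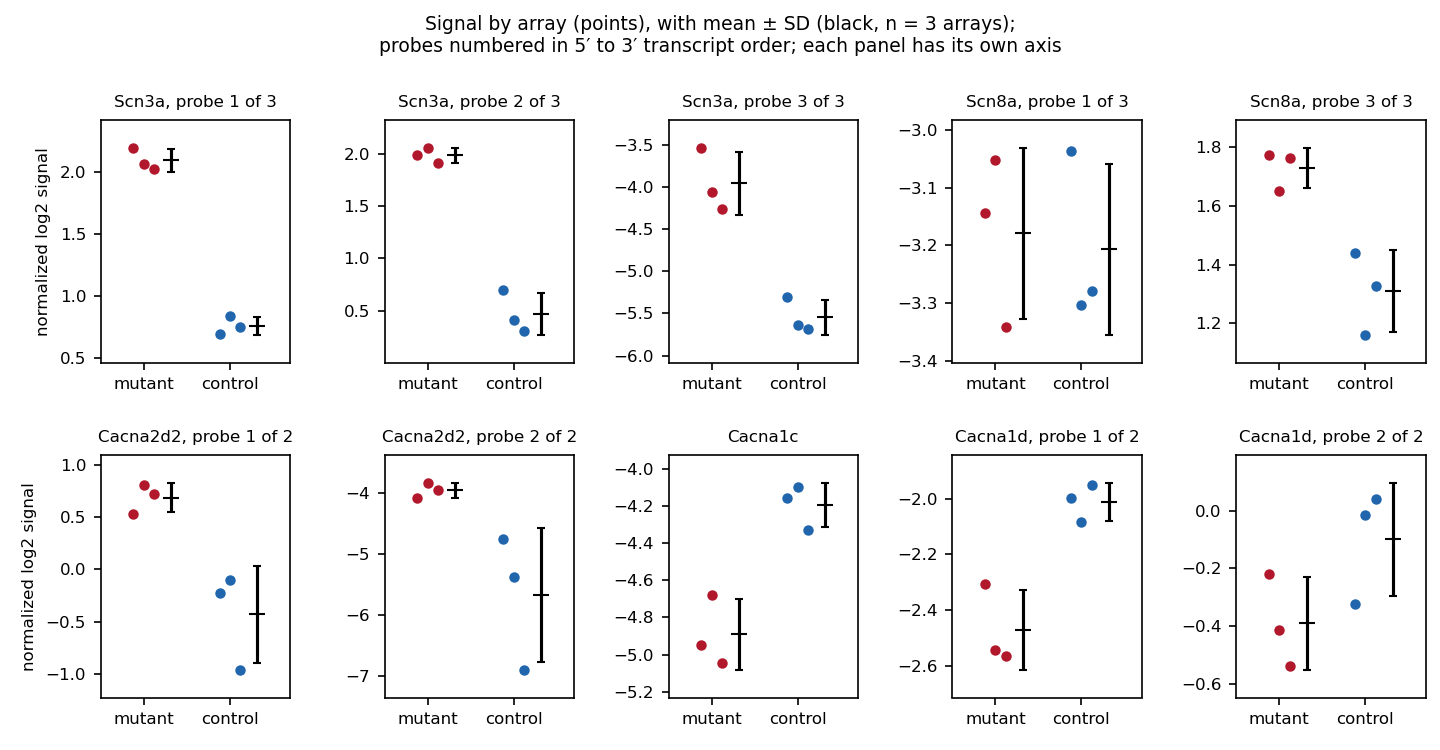
Normalized log2 signal on each array (points, mutants left of controls) with the mean ± SD of 3 arrays in black, for all tested probes of Scn3a, Scn8a, Cacna2d2, Cacna1c and Cacna1d, each panel with its own axis. The mutant points lie above the control points on all 3 Scn3a and both Cacna2d2 probes and below them for Cacna1c and the first Cacna1d probe.

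The L-type pores, the main route of calcium into the beta cell, held no called gene among 4 tested, and 3 of the 4 differences were below 0, with a median of -0.41. Cacna1c, which encodes Cav1.2, had -4.95, -4.68 and -5.04 in mutants A to C and -4.16, -4.10 and -4.33 in controls A to C. All mutant arrays lay below all control arrays, and the mean was 1.62-fold lower. The difference of -0.70 (SE 0.14, 95% interval -1.03 to -0.36) missed the threshold (adjusted p = 0.0625 in limma), was -0.70 within slide 1 and -0.74 within slide 2, and passed when only genes above background on all 6 arrays were tested (adjusted p = 0.0490). It shrank to -0.24 with normexp background correction (adjusted p = 0.287) and to -0.31 with the authors' equalized values (adjusted p = 0.189). The normexp correction adds an offset of 50 to all signals, and the part of that offset in the smaller difference was not tested. Over all alternatives the adjusted p of Cacna1c ran from 0.0490 to 0.287. The array carries 1 probe for it, with corrected signals of 47.0 to 74.4 in mutants and 102 to 137 in controls.

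Cacna1d, which encodes Cav1.3, had -0.22, -0.41 and -0.54 in mutants A to C and -0.32, -0.01 and 0.04 in controls A to C on its brighter, 3′ probe. The groups overlapped through mutant A and control A, and the difference was -0.29 (SE 0.15, adjusted p = 0.334). The Cacna1d probe at position 6870 had -2.31, -2.54 and -2.56 in mutants A to C and -1.996, -2.08 and -1.95 in controls A to C. There all mutant arrays lay below all control arrays, and the difference was -0.46 (SE 0.12, adjusted p = 0.0973 in the fit of single probes). Neither probe passed, and the panels of single probes show both patterns side by side.

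Cacna1s, the L-type pore of skeletal muscle, had -4.32, -4.96 and -4.61 in mutants A to C and -4.13, -4.23 and -3.94 in controls A to C. The groups did not overlap, with a difference of -0.53 (SE 0.19, adjusted p = 0.192), which was -0.28 under normexp and -0.31 with the authors' equalized values, and its other probe was above background on no array. Cacna1f, the L-type pore of the retina, had a difference of 0.04 (SE 0.19) and was above background on 1 mutant array and 3 control arrays. Of the 6 skeletal and heart muscle markers, 4 were tested, with 2 differences above 0 and 2 below, a median of 0.06 and summed levels of 0.239 to 0.249 in mutants and 0.178 to 0.218 in controls. Of the 6 smooth muscle and pericyte markers, 5 were tested, with 3 differences above 0 and 2 below, a median of 0.07 and summed levels of 7.06 to 7.70 in mutants and 6.82 to 7.398 in controls. No gene of either list was called, and the part of muscle cells in the Cacna1c and Cacna1s values was not tested.

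Of the P/Q-, N- and R-type pores, which open at stronger depolarisation and drive transmitter release in neurons, Cacna1a alone was tested. It had 0.08, 0.77 and 0.15 in mutants A to C and 0.07, 0.47 and 0.34 in controls A to C. The groups overlapped, the difference was 0.04 (SE 0.22, 95% interval -0.50 to 0.58), and a second probe gave 0.09 (SE 0.26). Cacna1b and Cacna1e, the N-type and R-type pores, each had 1 probe, above background on no array. R-type current is known from mouse beta cells, and the Cacna1e probe had corrected signals of 2.56 to 8.75 in mutants and 3.21 to 3.68 in controls, where no difference could be measured.

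The T-type pores open at low voltage. None of the 3 tested passed, and all 3 differences were above 0, with a median of 0.50. Cacna1g had -3.47, -4.02 and -3.79 in mutants A to C and -4.04, -3.94 and -4.003 in controls A to C, which overlapped, with a difference of 0.23 (SE 0.16, adjusted p = 0.451). Its second probe gave 0.32 (SE 0.15, adjusted p = 0.302 in the fit of single probes), with all mutant arrays above all control arrays, and neither probe passed. Cacna1h had -1.77, -1.88 and -1.27 in mutants A to C and -2.22, -1.78 and -2.42 in controls A to C on the 3′ probe, which spans AATAAA. Its difference there was 0.50 (SE 0.23, adjusted p = 0.296), with control B above mutant B.

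Cacna1h was the 1 gene of the 11 with more than 1 tested probe whose probes disagreed in sign. The probe near the 5′ end, at position 568, had -3.41, -4.35 and -4.03 in mutants A to C and -4.23, -3.15 and -3.16 in controls A to C. Its difference was -0.42 (SE 0.38, adjusted p = 0.572), and the groups overlapped on both probes. The files list the probes under different transcript accessions of the gene, at opposite ends of the transcript.

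**Figure D4:**
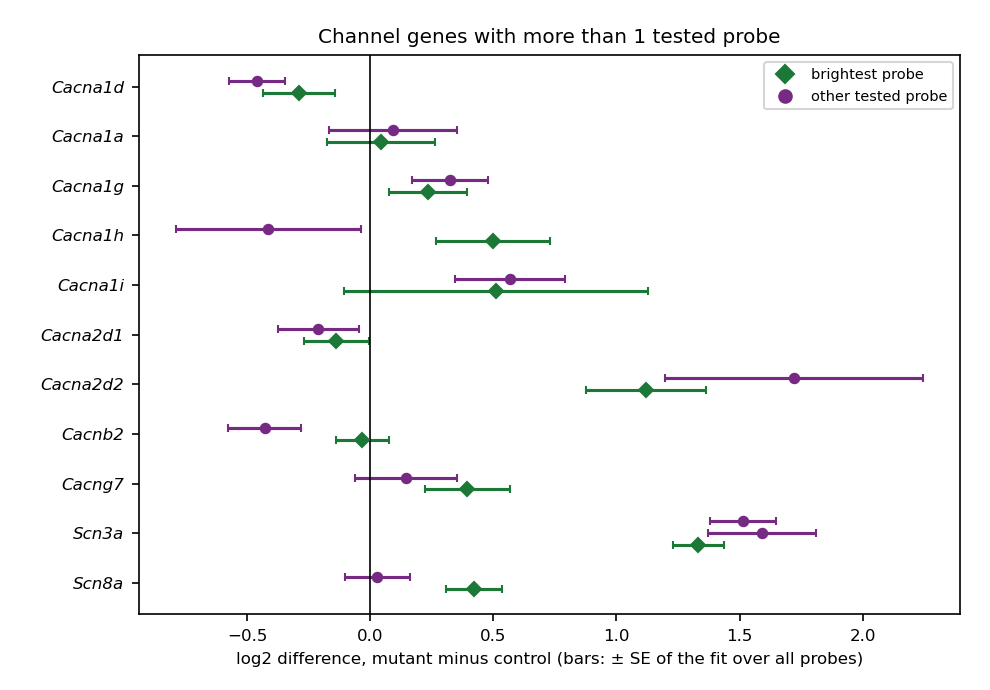
Log2 difference, mutant minus control, with its SE for every tested probe of the 11 channel genes that had more than 1, the brightest probe as a diamond and others as circles. In 10 genes the probes lie on the same side of 0, with Scn3a and Cacna2d2 farthest to the right, and the Cacna1h probes lie at 0.50 and -0.42.

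The plot of probes by gene shows how far the size of a difference depended on the probe. Cacnb2, a beta subunit found in heart and islets, gave -0.03 on its brighter probe. On its second probe it had -4.70, -4.89 and -4.68 in mutants A to C and -4.59, -4.16 and -4.24 in controls A to C, which did not overlap, and the difference of -0.43 (SE 0.15, adjusted p = 0.183 in the fit of single probes) did not pass. Cacng7 gave 0.39 on its brighter probe, with a second probe at 0.15. For 20 further tested genes a single probe was available, so no such comparison could be made.

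The alpha2delta subunits, which raise the number of calcium pores at the membrane, included the calcium channel gene with the largest difference. Cacna2d2 had 0.54, 0.81 and 0.72 in mutants A to C and -0.23, -0.10 and -0.96 in controls A to C. All mutant arrays lay above all control arrays, and the controls were the more spread group. The difference of 1.12 (SE 0.24, 95% interval 0.52 to 1.71, 2.17-fold) missed the threshold (adjusted p = 0.0785 in limma) and was 1.00 within slide 1 and 1.06 within slide 2. It passed with a variance trend and robust estimation (adjusted p = 0.0495) and at that threshold in no other alternative, over which the adjusted p ran from 0.0626 to 0.283.

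The second Cacna2d2 probe, from a stretch farther 3′, had -4.07, -3.83 and -3.94 in mutants A to C and -4.74, -5.37 and -6.89 in controls A to C. The groups again did not overlap, the difference was 1.72 (SE 0.53, adjusted p = 0.145 in the fit of single probes), and control C was the lowest array on both probes. Cacna2d2 is known from neurons, and 5 of 6 neuron markers were tested, all above background on all arrays, with Rbfox3 not tested. Of these 5, 4 had differences above 0 and 1 below, with a median of 0.19, and none was called. Their mean deviations from the control average were 0.68, 0.40 and 0.01 in mutants A to C and -0.10, 0.35 and -0.25 in controls A to C, which overlapped. Their summed level, mostly that of Snap25 (difference -0.47), was 12.5 to 15.99 in mutants and 18.1 to 19.8 in controls. The part of neurons in the Cacna2d2 difference was not tested.

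Cacna2d1, an alpha2delta subunit of muscle and islets, had 2.28, 2.39 and 1.98 in mutants A to C and 2.37, 2.34 and 2.36 in controls A to C. The groups overlapped, the difference was -0.14 (SE 0.13, 95% interval -0.46 to 0.18), and a second probe gave -0.21. Cacna2d3 had -3.002, -3.38 and -3.04 in mutants A to C and -3.81, -3.34 and -4.01 in controls A to C. Control B lay just above mutant B, and the difference was 0.58 (SE 0.21, adjusted p = 0.201). Cacna2d4 of the retina had a difference of 0.03 (SE 0.20).

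The calcium channel beta subunits, which carry the pore to the membrane, had differences between -0.03 and -0.02 on the brightest probe of all 3 tested genes. Cacnb3, which is known in mouse beta cells as a brake on insulin release, had 1.00, 0.77 and 0.19 in mutants A to C and 0.62, 0.75 and 0.66 in controls A to C. Mutant C was low and mutant A high, and the difference was -0.02 (SE 0.22, 95% interval -0.55 to 0.51). Cacnb2 had -1.75, -1.73 and -1.71 in mutants A to C and -1.85, -1.63 and -1.62 in controls A to C on its brighter probe. The difference there was -0.03 with an interval of -0.30 to 0.23, while its second probe, described above, gave -0.43 with groups that did not overlap. Cacnb1 of skeletal muscle had -0.02 (SE 0.18), and Cacnb4, best known from brain, was above background on 2 control arrays alone and was not tested.

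The gamma subunits include a muscle calcium channel subunit, Cacng1, and a set that mainly guides glutamate receptors in neurons. None of 5 tested genes passed, and the differences ran from -0.43 to 0.39 with a median of 0.13. Cacng7 had -2.44, -2.92 and -2.88 in mutants A to C and -2.99, -3.11 and -3.33 in controls A to C. The groups did not overlap, the difference was 0.39 (SE 0.17, adjusted p = 0.273), and it was 0.09 within slide 1 and 0.77 within slide 2. Cacng4 and Cacng6 had differences of 0.18 (SE 0.26) and 0.13 (SE 0.29) with overlapping groups.

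Cacng2, named stargazin, had a difference of -0.13 (SE 0.14) and was above background on 2 mutant and 3 control arrays. Cacng5 was not well above background on any mutant array, so its fold of 1.03, controls over mutants, rests on a bound for the mutants. The fit gave -0.43 (adjusted p = 0.567), with an interval of -1.38 to 0.51. The groups overlapped, with mutants A and B at -6.15 and -6.21 above control C at -6.56. Under normexp the difference was 0.14, so no direction was established. The measured means of Cacng5 were -6.59 in mutants and -6.16 in controls. Cacng3 was above background on no array, Cacng8 on 1 mutant and 2 control arrays, and Cacng1 on mutant A alone, so these were not tested.

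Of the 55 channel probes, 44, 40 and 44 were above background on mutants A to C and 43, 46 and 46 on controls A to C, counts that overlapped between groups. In all, 40 probes were above background on all arrays, 7 on none and 8 on some, and no spot of the family was saturated or marked as an outlier. Calcium channel genes by themselves gave 0 calls of 20 in limma, with 4 at an unadjusted p under 0.05, and sodium channel genes 1 call of 11, with 2 at that limit, against 2.56% called and 20.2% at that limit over all gene names. Their median differences were 0.03 and 0.24. The 8 genes without a tested probe were Cacna1b, Cacna1e, Cacnb4, Cacng1, Cacng3, Cacng8, Scn7a and Scn10a.

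Genes that work beside the channels were described by 4 lists. Of 22 tested partners and inhibitors of calcium channels, none was called (7 at an unadjusted p under 0.05, against 20.2% of all gene names) and the median difference was 0.01. Akap7, an anchor of protein kinase A at L-type channels, had the largest difference of that list, with 1.16, 2.596 and 2.65 in mutants A to C and 0.66, -0.65 and -0.37 in controls A to C. The groups did not overlap, and the difference of 2.25 (SE 0.52) missed the threshold (adjusted p = 0.0866) but passed with slide as a block (adjusted p = 0.0155). Rem2, a small GTP-binding protein that inhibits L-type channels and is known from beta cells, had -3.09, -2.89 and -3.58 in mutants A to C and -3.66, -3.22 and -3.37 in controls A to C. These overlapped, with a difference of 0.23 (SE 0.21, adjusted p = 0.579).

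Of 12 tested partners of sodium channels, none was called (3 at an unadjusted p under 0.05, against 20.2% of all gene names), with a median of 0.05. Fgf12, an intracellular factor that binds the tail of sodium pores, had the largest difference of that list, 0.93 (SE 0.23, adjusted p = 0.1004). Its signals were 1.81, 1.41 and 1.22 in mutants A to C and 0.95, 0.35 and 0.35 in controls A to C, with no overlap.

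Of 17 tested genes for other routes of calcium and cation entry or release, 2 rose (11.8%, against 2.56% of all gene names called), none fell and the median was 0.16. The groups did not overlap for 10 of the 17 (58.8%, against 26.3% of all), 6 of them higher and 4 lower in mutants. Both encode inositol trisphosphate receptors, which release calcium from the endoplasmic reticulum. Itpr1 had 3.70, 3.63 and 3.56 in mutants A to C and 2.97, 2.88 and 2.72 in controls A to C, a difference of 0.77 (SE 0.11, adjusted p = 0.0332). Itpr2 had 1.703, 1.72 and 1.66 in mutants A to C and 1.08, 1.13 and 1.14 in controls A to C, a difference of 0.58 (SE 0.090, adjusted p = 0.0402). In both, all mutant arrays lay above all control arrays. Both calls were close to the threshold: the call of Itpr1 was kept only without control A among the arrays left out in turn, where the others gave adjusted p-values of 0.0689 to 0.151, and that of Itpr2 was lost without any single array, at 0.0603 to 0.168. Their differences stayed between 0.70 and 0.83 for Itpr1 and between 0.57 and 0.60 for Itpr2.

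Of 18 tested calcium-regulated response genes, 1 rose (5.56%, against 2.56% of all gene names called) and none fell, with a median of -0.04. It was Camk4, a kinase activated by calcium and calmodulin, with -2.58, -2.38 and -2.74 in mutants A to C and -3.79, -3.84 and -3.84 in controls A to C. The groups did not overlap, and the difference was 1.25 (SE 0.12, adjusted p = 0.0151). It was 1.16 without mutant B (adjusted p = 0.0686), 1.25 without control B (adjusted p = 0.0880) and 1.25 without control C (adjusted p = 0.0875), where the call was lost. Ins2, the insulin gene whose product the calcium signal releases, had 7.50, 8.16 and 8.62 in mutants A to C and 8.29, 7.64 and 7.64 in controls A to C. Its groups overlapped, and the difference of 0.24 (SE 0.33, adjusted p = 0.710) did not pass and turned to -0.02 with slide as a block. The Ins2 probe is bright on all arrays and its saturation was not examined, so these values do not show that Ins2 was unchanged.

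**Figure D5:**
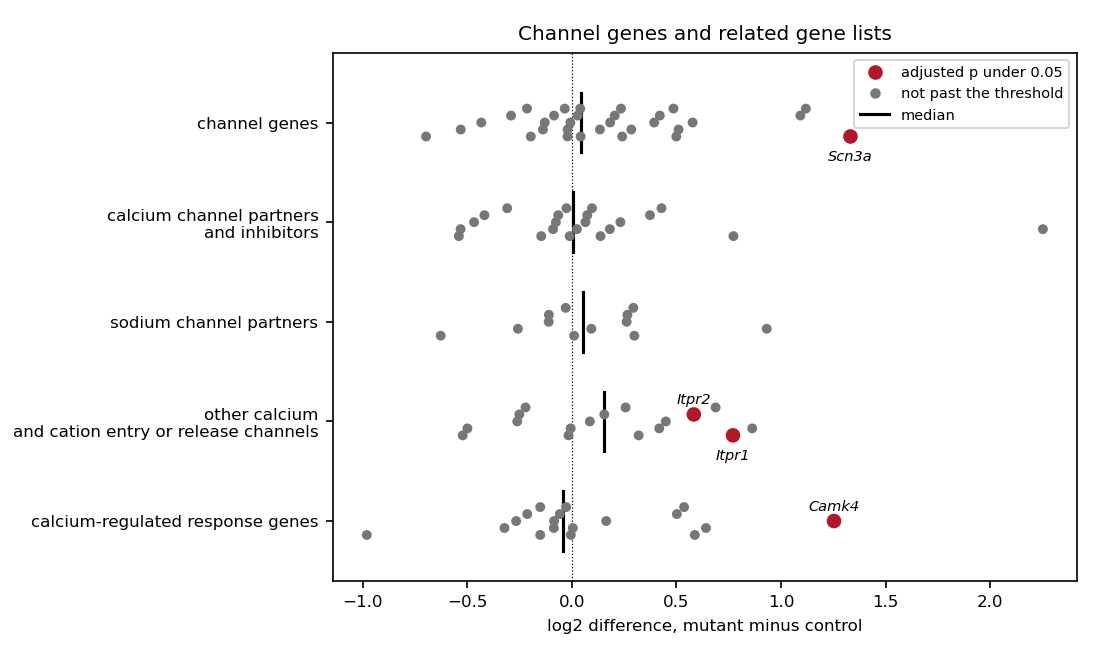
Log2 difference, mutant minus control, of every tested channel gene and of every tested gene of 4 related lists, with the median of each list as a black line and genes at an adjusted p under 0.05 in red. The medians lie between -0.04 and 0.16, and the red points are Scn3a, Itpr1, Itpr2 and Camk4, all above 0.

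The plot of the lists shows each one centred near 0, with single genes standing away from the rest.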

How the data were processed

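Islet RNA (150 ng a sample) was labelled with Cy3, per the labels' protocols. Spots were read with Agilent Feature Extraction 10.7.3.1, per the submitters' processing notes. The deposited scanner files hold spot intensities that this software corrected for background, not scaled between arrays, and other values that flag saturation, outliers and signal well above background. A deposited table of intensities that the authors equalized by a method not given in the sources used here served as an alternative.

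Spots of a probe were averaged on the log2 scale and each array's 75th percentile was subtracted. limma 3.58.1 in R 4.3.3 (two-sided, files read with version 1.17.8 of data.table) compared 3 mutant with 3 control arrays over 22775 gene names, each by its brightest probe of the 28361 tested, with Benjamini-Hochberg adjustment. The fit was tested on simulated data, where it called 64 of 100 genes given a log2 change of 1.5. Of the genes given a log2 change of 3 in the same run it called 92, and 7 calls of the whole run were false. A log2 change of 1.5 can thus go uncalled. Folds compare geometric means. Where no array of a group detected a gene, its fold is a bound, taken per array from the dimmest detected probe or the gene's own signal, whichever was higher. Symbols of 28 of 31 tested members matched by accession to RefSeq (GRCm38).

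Named were the members, some of which are counted but not reported here by name, Nkx6-1, Rem2, Ins2 and, of each pathway list, up to 3 called genes or else the largest difference. The members and lists were chosen with earlier results of these data known. Signal over background takes the place of depth. Alternatives were the background correction, scaling, deposited table, dim-probe filter, slide or letter block, probe choice, variance model, outlier flags, threshold and each array left out.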

Additional observations from a re-analysis of the deposited data

Results flagged for a closer look

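Signal appeared in channel probes that the filter left untested, on 1 mutant array and on no control array. The probe of Cacng1, the gamma subunit of the skeletal muscle calcium channel, had a normalized log2 signal of -4.50 on mutant A, -6.65 and -7.39 on mutants B and C, and -7.41, -7.52 and -7.81 on controls A to C, and only the value of mutant A was well above background. The probe of Scn10a, a sodium pore of sensory neurons, had -4.75 on mutant A, -7.45 and -8.69 on mutants B and C, and -8.21, -9.04 and -9.07 on controls A to C, again above background on mutant A alone. Mutant A was 1 of the 2 arrays with raised lowest signals, and its part in these values was not tested.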

How the results depend on the processing

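The call of Scn3a and its direction were kept under normexp, quantile normalization, the deposited equalized values, both dim-probe filters, slide as a block, the mean of probes, single probes, trend with robust estimation and outlier flags removed, with 404 to 801 calls over all genes. Channel genes called were 2 with the filter on all arrays (Cacna1c added), 2 with trend and robust estimation (Cacna2d2 added) and 3 at an adjusted p under 0.1, where all genes gave 1553. With each array left out in turn, calls ranged from 13 to 424 over all genes and from 0 to 1 for channel genes. Scn3a was then lost without mutant B, control B or control C, where fewer samples enter. With mutant arrays A and B left out, an alternative chosen after seeing the data in which mutant C is assumed to vary like the controls, 0 genes and 0 channel genes were called in limma (3845 and 9 at an unadjusted p under 0.05), with Scn3a at 1.26 (adjusted p = 0.0822). With the replicate block 0 genes and 0 channel genes were called (3196 and 5 at an unadjusted p under 0.05), with adjusted p-values of 0.123 for Scn3a, 0.183 for Itpr1, 0.226 for Itpr2 and 0.139 for Camk4. Itpr1 and Itpr2 also missed the threshold with no dim-probe filter (0.0592 and 0.0751). Deviations of same-letter samples correlated at -0.23, -0.19 and -0.03. No sample of 1 group correlated best with its own letter in the other. These values cannot tell whether letters pair samples, because no letter had its mutant and control on a shared slide. Mutant and control arrays of a shared slide correlated at 0.084 to 0.23. Pairs with neither letter nor slide in common gave -0.12 and -0.099. Whether the replicate block is the better model was thus not settled.

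Signs turned for several genes that were not called, the cause not tested. Under normexp the differences were 0.046 for Cacnb1, 0.21 for Cacng2, 0.14 for Cacng5 and 0.11 for Scn1a. Quantile normalization gave 0.038 for Scn1a, and the equalized values 0.038 for Cacnb1, 0.20 for Cacng2 and 0.051 for Scn1a. Slide as a block gave 0.085 for Cacnb1 and 0.080 for Cacnb3. Without mutants A and B the values were -0.16 for Cacna1f, -0.14 for Cacna1a, -0.34 for Cacna2d4, 0.015 for Cacng2, 0.46 for Scn1a and -0.16 for Rem2. Ins2 was at -0.057 with the equalized values and -0.018 with slide as a block. With 1 array left out, the ranges were -0.14 to 0.14 (Cacna1f), -0.18 to 0.17 (Cacna1a), -0.18 to 1.06 (Cacna1i), -0.13 to 0.21 (Cacna2d4), -0.21 to 0.11 (Cacnb1), -0.11 to 0.0053 (Cacnb2), -0.19 to 0.21 (Cacnb3), -0.075 to 0.34 (Cacng4), -0.11 to 0.34 (Cacng6), -0.24 to 0.16 (Scn1a), -0.16 to 0.65 (Scn2b), -0.19 to 0.54 (Scn4b) and -0.025 to 0.53 (Ins2). Dim probes such as those of Cacna1b, Cacna1e and Scn7a allow no statement on change.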
